A study of Mus musculus with 6 samples.

Results

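A set of 51 genes that act in G2 phase and mitosis was followed through 6 RNA libraries of fibroblasts cultured directly from mouse embryos (MEFs). The genes were chosen by name from a list of cyclins, mitotic kinases, kinetochore, spindle and chromosome proteins, a list drawn up with earlier results of these data known. All 51 were found among the 55487 genes of the deposited count table, and all 51 passed the filter on low counts that left 16962 genes to test. The cells were wild-type MEFs, labelled senescent at passage 6 (P6) and non-senescent at passage 1 (P1), where each passage means that the culture was split and replated. For P6 and for P1 alike, 1 library came from cells given α-amyrin at 20 µM, 1 from cells given β-amyrin at 20 µM and 1 from vehicle-treated cells, with 3 days of treatment. α-Amyrin and β-amyrin are plant triterpene alcohols with the same formula. They differ in the placing of a methyl group on ring E.

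No condition was replicated. The labels name no separate cultures within a passage, so each p-value measures only the spread among these 6 libraries, which may be technical. The labels also do not say that the P6 cells came from the same isolate as the P1 cells, so passage and isolate cannot be told apart.

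Library totals ran between 18798418 and 28752332 counts. The 10 fibroblast markers summed to between 22054 and 30017 CPM (read counts after scaling for library size) and none was at 0 in any library. Of these 10, 7 were called lower in P6 cells and 1 higher (median log2 change -0.48), against 29.1% and 30.0% of all tested genes. Markers of other cell types also moved with passage. The 15 macrophage markers summed to 5323 CPM in P6 α-amyrin, 3804 CPM in P6 β-amyrin and 5253 CPM in P6 vehicle cells, against 300.1, 44.1 and 350.2 CPM in P1 α-amyrin, β-amyrin and vehicle cells. Each of those 15 was called higher at P6, against 30.0% of all tested genes. The 8 muscle markers summed to between 12.2 and 18.2 CPM at P6 and to between 100.6 and 117 CPM at P1. The 6 endothelial markers summed to between 8.33 and 11.4 CPM at P6 and to between 32.4 and 32.7 CPM at P1. No macrophage marker was at 0 in any library, while between 2 and 4 of the muscle markers were at 0 in each P6 library and 1 endothelial marker was at 0 in each library but P6 vehicle. The part of these cells in the results that follow was not tested.

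G2/M genes are switched on together late in the cell cycle. Their protein products drive entry into mitosis, build the spindle, hold and separate the chromosomes and cut the cell apart, and cells that leave the cycle keep them silent. Much of this timing is known to run through short promoter elements. The cell cycle genes homology region (CHR) is bound by the MuvB core, which represses with E2F4 and the pocket protein p130 (Rbl2) in resting cells and activates with B-Myb (Mybl2) and FOXM1 in dividing cells, and the CCAAT box is bound by NF-Y.

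The promoters of 11 of the 51 genes, picked by name, are shown. These genes include Ccnb1 (a cyclin) and Plk1 (a kinase), near the strong end of the passage change, and the checkpoint gene Bub3 at its weak end. Spc24 and Ect2 fell by more but are not among the 11. The 11 promoters come from the RefSeq promoter table of build GRCm38.p6, each read 5′ to 3′ on the strand of the gene. Each has 120 bases before and 50 bases after the start of transcription. Capitals mark the letters TTTGAA or TTCGAA, taken as the core of the CHR, and the letters CCAAT, each on either strand, so that TTCAAA and ATTGG are the same letters read from the other strand. No CHR match overlaps a CCAAT match in these stretches.
Ccnb1 (chr13:100786437-100786606, minus strand): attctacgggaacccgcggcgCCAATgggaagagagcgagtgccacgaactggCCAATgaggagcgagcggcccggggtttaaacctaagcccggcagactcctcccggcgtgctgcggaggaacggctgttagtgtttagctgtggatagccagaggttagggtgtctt
Ccnb2 (chr9:70421505-70421674, minus strand): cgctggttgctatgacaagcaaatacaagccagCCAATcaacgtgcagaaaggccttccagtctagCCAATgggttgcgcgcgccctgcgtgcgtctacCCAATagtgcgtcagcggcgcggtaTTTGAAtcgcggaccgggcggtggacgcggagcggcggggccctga
Cdk1 (chr10:69352863-69353032, minus strand): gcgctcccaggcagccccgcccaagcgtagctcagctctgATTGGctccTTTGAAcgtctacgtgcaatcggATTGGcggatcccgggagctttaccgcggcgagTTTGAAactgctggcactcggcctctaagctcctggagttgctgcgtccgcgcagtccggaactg
Plk1 (chr7:122159315-122159484, plus strand): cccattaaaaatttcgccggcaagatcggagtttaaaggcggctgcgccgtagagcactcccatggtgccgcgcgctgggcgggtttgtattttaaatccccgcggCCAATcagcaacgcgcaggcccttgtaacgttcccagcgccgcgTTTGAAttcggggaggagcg
Cdc20 (chr4:118437294-118437463, minus strand): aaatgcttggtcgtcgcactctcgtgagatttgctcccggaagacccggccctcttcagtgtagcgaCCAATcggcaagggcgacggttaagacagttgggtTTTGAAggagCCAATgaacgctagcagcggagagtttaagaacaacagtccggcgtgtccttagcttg
Aurka (chr2:172370521-172370690, minus strand): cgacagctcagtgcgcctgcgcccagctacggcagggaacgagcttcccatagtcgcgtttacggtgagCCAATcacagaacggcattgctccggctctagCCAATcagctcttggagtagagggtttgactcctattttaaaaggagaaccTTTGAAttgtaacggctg
Cdc25b (chr2:131186828-131186997, plus strand): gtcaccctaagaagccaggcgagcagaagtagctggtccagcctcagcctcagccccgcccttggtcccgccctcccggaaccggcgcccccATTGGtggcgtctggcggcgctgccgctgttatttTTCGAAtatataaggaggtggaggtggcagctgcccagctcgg
Birc5 (chr11:117849117-117849286, plus strand): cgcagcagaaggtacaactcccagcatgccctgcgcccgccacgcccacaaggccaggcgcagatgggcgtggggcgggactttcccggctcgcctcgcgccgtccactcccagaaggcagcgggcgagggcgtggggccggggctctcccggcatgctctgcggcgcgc
Top2a (chr11:99024140-99024309, minus strand): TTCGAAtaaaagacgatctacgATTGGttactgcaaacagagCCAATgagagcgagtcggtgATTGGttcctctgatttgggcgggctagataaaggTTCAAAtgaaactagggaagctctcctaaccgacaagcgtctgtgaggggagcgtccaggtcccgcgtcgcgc
Ube2c (chr2:164769809-164769978, plus strand): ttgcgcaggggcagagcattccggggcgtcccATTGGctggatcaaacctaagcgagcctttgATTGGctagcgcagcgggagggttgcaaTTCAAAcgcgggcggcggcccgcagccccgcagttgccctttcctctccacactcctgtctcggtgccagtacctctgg
Bub3 (chr7:131560250-131560419, plus strand): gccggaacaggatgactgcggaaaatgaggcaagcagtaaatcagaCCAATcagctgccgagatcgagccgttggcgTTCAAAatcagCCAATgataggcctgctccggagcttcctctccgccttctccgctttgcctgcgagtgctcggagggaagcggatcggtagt

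In the 11 stretches, Cdk1 and Top2a each held 2 CHR matches, Ccnb1 and Birc5 held none, and the other 7 genes held 1 each. No other letters were searched for the CHR, so Ccnb1 and Birc5 are not shown to lack the element. Ccnb2 and Top2a held 3 CCAAT matches, Ccnb1, Cdk1, Cdc20, Aurka, Ube2c and Bub3 held 2, Plk1 and Cdc25b held 1, and Birc5 held none. Bub3, with the weakest passage change of the 51, thus held a CHR match and 2 CCAAT matches, as the strongly changed Cdc20 did, and Birc5 held neither.

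The whole promoter window, 250 bases before to 50 bases after the start, was given for 43 of the 51 genes. CHR letters were present in 35 of those 43 genes (81.4%), against 21.7% of the 27025 genes of the table and 16.7% of the 11525 tested genes in it. CCAAT was present in 34 (79.1%), against 41.1% of all genes of the table and 42.7% of the tested ones. Both were present in 31 (72.1%), against 8.61% and 7.04%. At least 2 CCAAT matches were present in 24 genes (55.8%), against 13.3% of all genes of the table. The 8 genes with no CHR letters in the window were Ccnb1, Plk4, Nek2, Birc5, Cenpe, Nuf2, Knstrn and Nusap1.

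The matches also lay at different places. Positions were taken at 1 start per gene, so matches at a second start of Bub3, Ect2 and Prc1 were left out. The median CHR match of the G2/M genes began 2.5 bases after the start of transcription (48 matches), against 125 bases before it over all genes (position -125.0, 6066 matches). For CCAAT the median position was -68.0 in the G2/M genes (79 matches) and -91.0 in all genes (14907 matches). Within the 43 genes the presence of the letters went with little difference in the passage change. The median P6 minus P1 log2 change was -1.24 for genes with CHR letters and -1.19 for genes without them. For CCAAT it was -1.22 with and -1.25 without. A match is a description of the letters and not a sign of binding, and a missing match does not show that an element is absent.

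**Figure D1:**
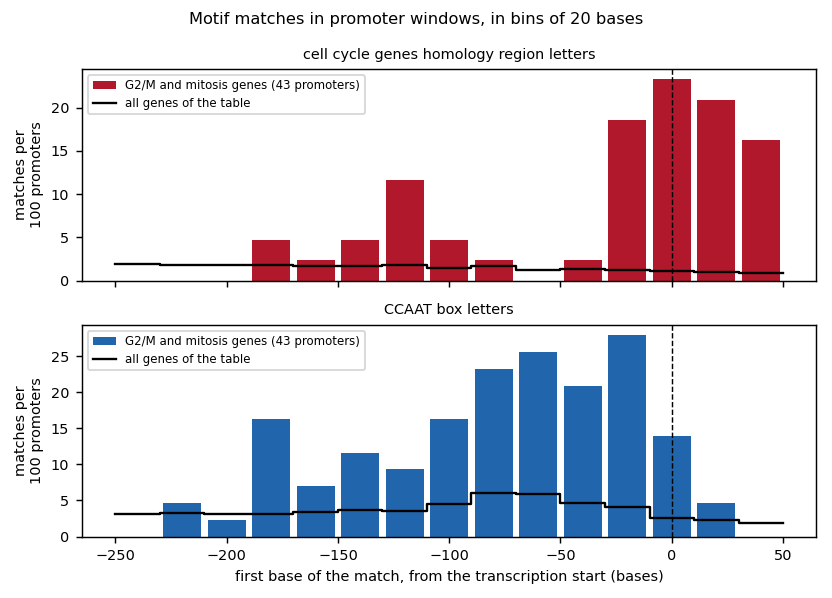
Matches per 100 promoters (vertical axes) by the distance of the first base of the match from the start of transcription, in bins of 20 bases (horizontal axis), for CHR letters (upper panel) and CCAAT (lower panel). Bars are 43 G2/M and mitosis genes and the black line is all 27025 genes of the promoter table, with 1 start per gene. CHR bars are tallest around the start (median position 2.5) and CCAAT bars just before it (median position -68.0).

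All 51 genes were lower in P6 than in P1 cells. In the edgeR quasi-likelihood fit over the 6 libraries, with Benjamini-Hochberg adjustment over all 16962 genes, 51 of 51 were called lower at an adjusted p below 0.05, against a background of 29.1% of tested genes called lower and 30.0% called higher. The largest adjusted p among the 51 was 0.000336. The median log2 change was -1.24, against 0.00 over all tested genes, and the changes ran between -1.69 for Spc24 and -0.41 for Bub3. For 42 of the 51 the fitted change was -1 or below, that is at least 2-fold lower. Over all tested genes the lower quartile of the fitted change was -0.35, and the share at -1 or below is not given here. In bulk RNA, fewer dividing cells and less of each transcript per dividing cell cannot be told apart.

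The 6 libraries split cleanly by passage. Every P6 library was below every P1 library for 51 of 51 genes, an ordering that 32.2% of all tested genes showed. Summed over the 51 genes, expression was 1460 CPM in P6 α-amyrin, 1368 CPM in P6 β-amyrin and 1314 CPM in P6 vehicle cells, against 3188, 3136 and 2922 CPM in P1 α-amyrin, β-amyrin and vehicle cells. The set took 0.146%, 0.135% and 0.130% of all counts in the P6 α-amyrin, β-amyrin and vehicle libraries, against 0.326%, 0.311% and 0.291% in the matching P1 libraries.

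**Figure D2:**
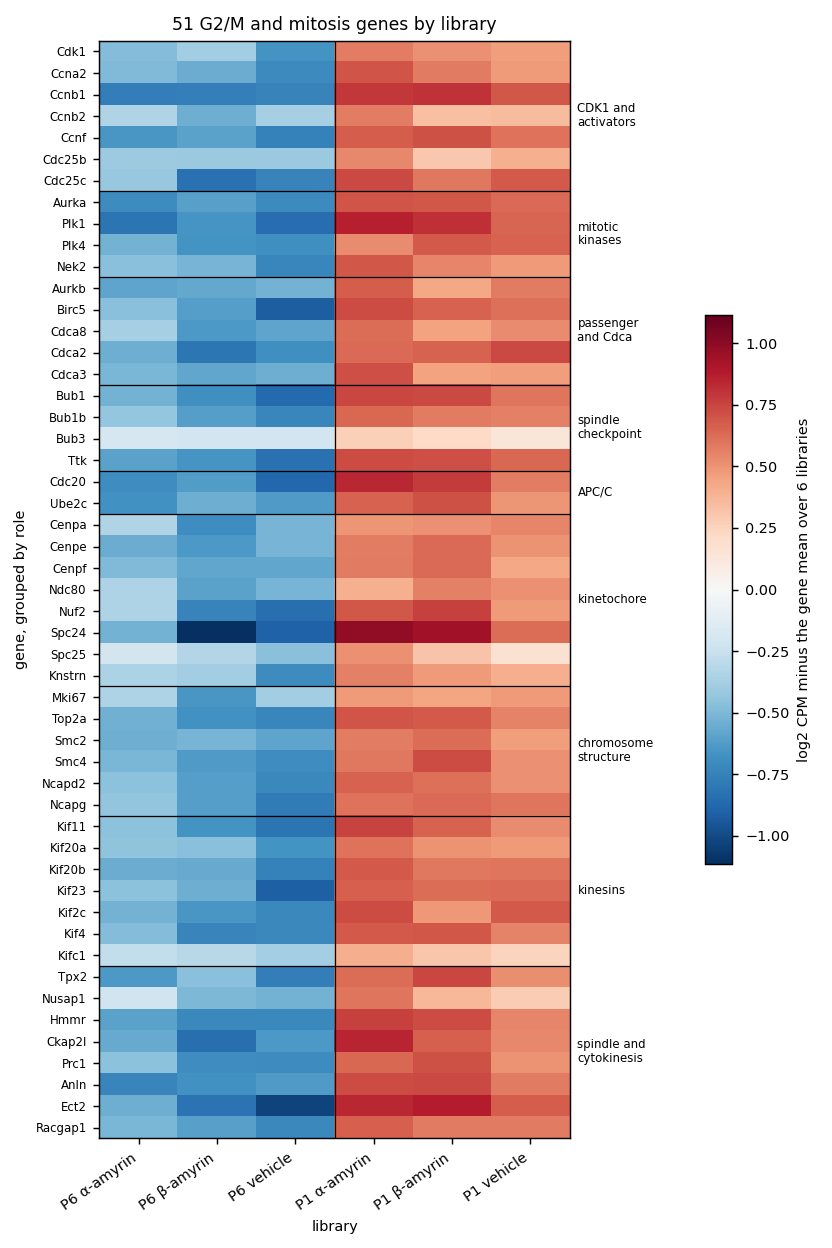
Log2 CPM of each of the 51 genes (rows, grouped by role) in each of 6 libraries (columns, P6 left of P1), as the difference from the mean of that gene over the 6 libraries. Red is above and blue below the gene mean; the 3 P6 columns are below the 3 P1 columns in every row, and the faintest row is Bub3.

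The same fall was seen in each of 3 pairs of libraries that share no library with each other. The median log2 ratio of P6 over P1 was -1.15 in α-amyrin, -1.23 in β-amyrin and -1.22 in vehicle cells. At least 2-fold lower in P6 cells were 40 genes in the α-amyrin pair, against 7.43% of all tested genes, 41 in the β-amyrin pair, against 7.25%, and 44 in the vehicle pair, against 7.15%. In all 3 pairs 37 genes were at least 2-fold lower. Over all tested genes that share is at most 7.15%, the share in the vehicle pair. Bub3, Ccnb2, Cdc25b, Kifc1, Nusap1 and Spc25 were 2-fold lower in none of the 3 pairs. Across the 51 genes the size of the fall in the vehicle pair went with that in the α-amyrin pair (Pearson r = 0.77, Spearman rho = 0.66) and in the β-amyrin pair (r = 0.81, rho = 0.71), and the α-amyrin and β-amyrin pairs also went together (r = 0.75, rho = 0.67). These are across 51 genes, which are not independent replicates, and the pairs share the passages compared. The order within the set was thus similar in the 3 pairs.

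On a scale per gene length (FPKM, as deposited) the median level of the 51 genes was 4.38 FPKM in P6 α-amyrin, 4.26 FPKM in P6 β-amyrin and 4.04 FPKM in P6 vehicle cells, against 10.5, 9.28 and 9.49 FPKM in P1 α-amyrin, β-amyrin and vehicle cells. Cdc20 had the highest FPKM level of the set in each library and Cdc25c the lowest. Cdc20 stood at 15.4, 15.9 and 13.5 FPKM in P6 α-amyrin, β-amyrin and vehicle cells, against 45.5, 41.9 and 36.9 FPKM in the matching P1 cells. Cdc25c stood at 0.909, 0.656 and 0.743 FPKM at P6, against 1.96, 1.73 and 1.91 FPKM at P1. Its lowest count, 77, was the lowest of any of the 51 genes in any library. Level and fall showed no relation across the 51 genes (log2 FPKM in P1 vehicle cells against the fitted change, r = -0.0031, rho = -0.022).

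The 7 genes of CDK1 and its activators had a median log2 change of -1.17. Values below are CPM in α-amyrin, β-amyrin and vehicle cells, in that order. Cdk1, the kinase that starts mitosis, had 34.1, 36.3 and 30.0 CPM at P6 and 70.6, 67.9 and 65.7 CPM at P1, a log2 fall of 1.03 ± 0.06 (standard error; adjusted p of edgeR = 2.53e-05). Ccnb1, which encodes cyclin B1, the main partner of CDK1, had 26.5, 26.7 and 27.0 CPM at P6 and 78.0, 78.8 and 73.1 CPM at P1. It fell by 1.52 ± 0.06 (adjusted p = 4.8e-06), the strongest change of its group. Its relative Ccnb2, cyclin B2, had 16.4, 14.2 and 16.0 CPM at P6 and 30.6, 26.0 and 26.3 CPM at P1 and fell by 0.83 ± 0.07. The 95% intervals of the B cyclins did not overlap (-1.65 to -1.39 for Ccnb1, -1.01 to -0.66 for Ccnb2). The phosphatase gene Cdc25b, whose product removes the brake phosphates from CDK1, had the weakest change of the group, a fall of 0.82 ± 0.08. Its fellow phosphatase gene Cdc25c fell by 1.33 ± 0.12. Ccna2 (cyclin A2) fell by 1.17 ± 0.05 and Ccnf (cyclin F) by 1.33 ± 0.06.

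Among the 4 mitotic kinase genes the median was -1.30. Plk1, the polo-like kinase of mitotic entry and centrosome maturation, had 19.2, 21.4 and 18.7 CPM at P6 and 61.6, 59.4 and 52.9 CPM at P1 and fell by 1.55 ± 0.07 (edgeR adjusted p = 7.5e-06). That left 34.1% of its P1 level. Aurka, the spindle pole kinase Aurora A, had 14.7, 15.7 and 14.6 CPM at P6 and 38.7, 38.4 and 36.9 CPM at P1 and fell by 1.34 ± 0.06. The centriole duplication kinase gene Plk4 fell by 1.25 ± 0.08, and the centrosome kinase gene Nek2 fell by 1.14 ± 0.07, the weakest of the 4.

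The 5 genes of the chromosomal passenger complex and the Cdca proteins had a median of -1.12. Aurkb, the Aurora B kinase that corrects faulty microtubule attachments, had 12.2, 12.3 and 12.7 CPM at P6 and 29.3, 24.7 and 27.3 CPM at P1 and fell by 1.12 ± 0.08. Birc5, which encodes the passenger subunit survivin, had 14.1, 12.7 and 10.2 CPM at P6 and 32.1, 30.5 and 29.6 CPM at P1 and fell by 1.33 ± 0.09. Cdca8, the passenger subunit borealin, fell least, by 1.07 ± 0.07. Cdca2, a subunit that brings a phosphatase to chromosomes, fell most, by 1.36 ± 0.09, and Cdca3 fell by 1.09 ± 0.08.

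The 4 spindle checkpoint genes fell by uneven amounts, with a median of -1.28. This checkpoint holds back anaphase until every chromosome is attached. Ttk, the MPS1 kinase that starts the signal, had 6.64, 6.37 and 5.63 CPM at P6 and 16.6, 16.5 and 15.6 CPM at P1 and fell by 1.39 ± 0.09. Bub1, a kinetochore kinase of the checkpoint, had 14.4, 12.9 and 11.3 CPM at P6 and 34.7, 34.5 and 31.3 CPM at P1 and fell by 1.38 ± 0.07, and Bub1b fell by 1.18 ± 0.07. Bub3, the adaptor that carries Bub1 and BubR1 to kinetochores, had 85.6, 84.4 and 84.1 CPM at P6 and 117, 114 and 107 CPM at P1. Its groups did not overlap either, but its fall was 0.41 ± 0.05 (edgeR adjusted p = 0.000336), which left 75.2% of the P1 level, against 38.3% for Bub1. The intervals of the partners were far apart (-0.52 to -0.30 for Bub3, -1.56 to -1.21 for Bub1).

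Both genes of the anaphase-promoting complex (APC/C) machinery in the set fell. Cdc20, the activator that starts anaphase, had 28.7, 30.1 and 25.3 CPM at P6 and 82.9, 79.3 and 68.8 CPM at P1 and fell by 1.46 ± 0.06 (edgeR adjusted p = 5.2e-06). Ube2c, the ubiquitin-conjugating enzyme of the complex, had 19.1, 20.9 and 19.7 CPM at P6 and 48.3, 49.8 and 42.9 CPM at P1 and fell by 1.24 ± 0.07.

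The 8 kinetochore genes had a median of -1.07, the smallest fall of the role groups, and held the largest single change. Spc24, Spc25, Ndc80 and Nuf2 encode the 4 subunits of the NDC80 complex, which couples kinetochores to microtubules. Spc24 had 4.67, 3.1 and 3.6 CPM at P6 and 13.3, 12.9 and 10.3 CPM at P1 and fell by 1.69 ± 0.14 (edgeR adjusted p = 7.87e-05). Spc25 had 16.6, 15.2 and 13.8 CPM at P6 and 27.1, 23.7 and 21.4 CPM at P1 and fell by 0.66 ± 0.07 (adjusted p = 0.000243). The intervals of this dimer did not overlap (-2.02 to -1.36 for Spc24, -0.83 to -0.49 for Spc25). Nuf2 fell by 1.28 ± 0.10 and its partner Ndc80 by 0.97 ± 0.10. Cenpa, the histone variant that marks the centromere, had 20.3, 15.8 and 17.8 CPM at P6 and 36.1, 36.5 and 37.3 CPM at P1 and fell by 1.03 ± 0.09. Cenpe, Cenpf and Knstrn fell by 1.14 ± 0.06, 1.10 ± 0.07 and 0.96 ± 0.08.

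The 6 chromosome structure genes had a median of -1.20. Top2a, the topoisomerase that untangles sister DNA, had 109, 99.4 and 95.6 CPM at P6 and 257, 255 and 232 CPM at P1 and fell by 1.29 ± 0.05 (edgeR adjusted p = 4.53e-06), the smallest adjusted p of the 51. Mki67, the proliferation marker that coats mitotic chromosomes, had 96.1, 77.7 and 93.5 CPM at P6 and 169.6, 165 and 169.8 CPM at P1 and fell least in this group, by 0.92 ± 0.06. The condensin genes stayed close together. Smc2 and Smc4, its ATPase subunits, fell by 1.10 ± 0.05 and 1.22 ± 0.06, and the condensin I subunit genes Ncapd2 and Ncapg fell by 1.19 ± 0.05 and 1.22 ± 0.08.

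Of the 7 kinesin genes, 6 fell within a narrow band, between 1.05 ± 0.05 for Kif20a, a kinesin of cytokinesis, and 1.29 ± 0.07 for Kif4, a chromosome-bound kinesin. Between them lay Kif11, the spindle bipolarity motor, at 1.29 ± 0.06, Kif23 at 1.27 ± 0.09, the microtubule depolymerase gene Kif2c at 1.26 ± 0.08 and Kif20b at 1.25 ± 0.07. Kifc1, a minus-end motor that focuses spindle poles, had 32.9, 32.0 and 30.5 CPM at P6 and 52.6, 49.2 and 47.3 CPM at P1 and fell by 0.64 ± 0.05.

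The 8 spindle and cytokinesis genes had a median of -1.30. Ect2, the exchange factor that turns on RhoA at the cleavage furrow, had 21.98, 18.1 and 15.7 CPM at P6 and 57.2, 58.9 and 51.1 CPM at P1 and fell by 1.59 ± 0.08 (edgeR adjusted p = 1.4e-05). Nusap1, a spindle microtubule-binding protein, had 16.4, 13.4 and 13.2 CPM at P6 and 28.7, 24.6 and 23.2 CPM at P1 and fell least, by 0.83 ± 0.07. The partners of centralspindlin, Kif23 and Racgap1, fell alike, with Racgap1 at 1.22 ± 0.05. The midzone bundler gene Prc1 fell by 1.24 ± 0.07 and the furrow scaffold gene Anln by 1.36 ± 0.06. Tpx2, the activator of Aurora A on the spindle, fell by 1.25 ± 0.05, and Hmmr and Ckap2l both fell by 1.36 (SE 0.06 and 0.08).

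**Figure D3:**
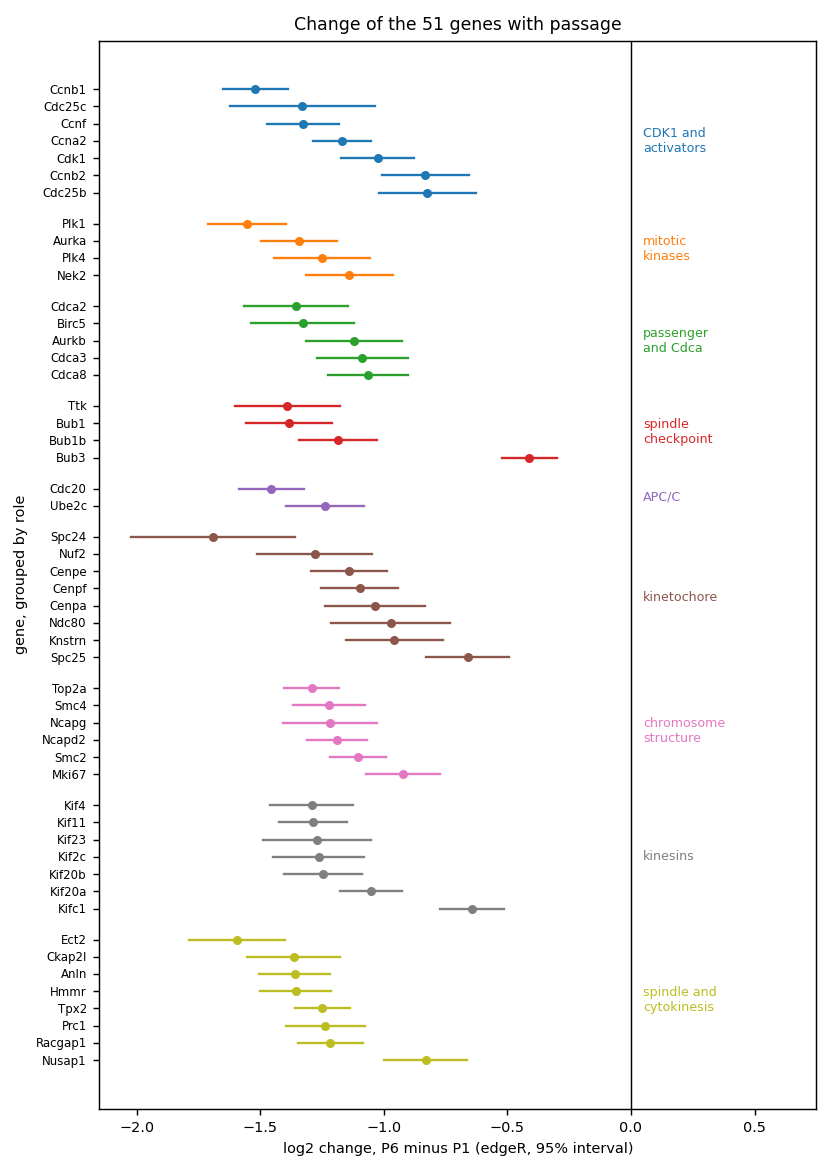
Fitted log2 change of each of the 51 genes, P6 minus P1 (horizontal axis), with its 95% interval from edgeR, grouped by role and sorted within each role (vertical axis). Each interval lies below 0, and Bub3 (-0.41), Kifc1 (-0.64) and Spc25 (-0.66) sit nearest to it.

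Some reads of these genes cannot be assigned with certainty. The kit keeps strand, but the sources used here do not give whether counting used it, and 13 of the 51 overlap a gene on the other strand with at least 10% of their own counts. The partner had 164% of the counts of Cdc20 (Elovl1), 125% of those of Kif20a (Cdc23) and 91.8% of those of Kif4 (Pdzd11). Bub3, Plk1, Ccna2, Prc1, Cdc25b, Nusap1, Ncapg, Cdca8, Nek2 and Knstrn are the other 10. The partner had 60.6% of the counts of Bub3 (Fgfr2), 39.3% of those of Cdc25b (Spef1) and 21.1% of those of Nusap1 (Oip5). These genes were 2-fold lower at P6 in none of the pairs. The shares were larger for Ncapg (76.2%), Cdca8 (74.1%) and Ccna2 (73.6%), which fell by more. The part of such reads in the weak changes was not tested. A near-identical copy also exists for Kifc1, since Kifc5b is 96.8% identical over 2312 aligned bases and had 29.2% of its counts. Ndc80 shares a shorter stretch, 303 bases at 95.05% identity, with the pseudogene 2700099C18Rik. All counts of that pseudogene, inside the stretch or not, came to 25.4% of those of Ndc80. The copies of Ccnb1 together held few counts, with 1.67% in the largest.

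Other cell division genes, outside the 51, mostly fell too but by less. Of 134 such genes tested in 7 lists, 96 were called lower and 19 higher at P6, against 29.1% and 30.0% of all tested genes. The median log2 change of the 134 was -0.40. The list nearest to the 51 was other kinetochore and centromere genes, with 24 of 28 lower, 2 higher and a median of -0.81. The 2 higher were Cenpb (0.31 ± 0.05), which binds centromeric DNA, and Cenpo (0.33 ± 0.08). Centrosome and microtubule genes had 22 of 26 lower, 3 higher and a median of -0.46. Those 3 were the kinesins Kif3a (0.79 ± 0.06), Kif3b (0.47 ± 0.05) and Kif1b (0.17 ± 0.04), which are motors of cilia and of organelle transport. Cohesin and condensin genes had 11 of 17 lower, 2 higher and a median of -0.45, and the 2 higher were Mau2 (0.38 ± 0.05), which loads cohesin, and securin, Pttg1 (0.85 ± 0.11), which restrains separase. The core subunits of the APC/C, whose activator Cdc20 fell by 1.46, had 13 of 16 lower, 1 higher and a median of -0.24, and the exception was Anapc2 (0.33 ± 0.05). Mitotic entry brakes and phosphatases had 10 of 17 lower, 2 higher (Ensa at 0.40 ± 0.05 and Cdc14b at 0.27 ± 0.07) and a median of -0.21. These lists differ from the 51 in level and in how their genes were picked, so the medians are a description.

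Of 22 regulators of G2/M transcription tested, 12 were called lower and 7 higher, against 29.1% and 30.0% of all tested genes, with a median of -0.30. Foxm1, an activator, had 23.8, 25.1 and 25.9 CPM at P6 in α-amyrin, β-amyrin and vehicle cells and 63.1, 56.9 and 54.4 CPM in the matching P1 cells, a fall of 1.22 ± 0.08 (edgeR adjusted p = 2.71e-05). Mybl2, which encodes B-Myb, had 6.16, 7.0 and 6.09 CPM at P6 and 16.8, 18.2 and 16.3 CPM at P1, a fall of 1.41 ± 0.09. Rbl2, which encodes the pocket protein of the repressive complex, had 69.7, 61.2 and 66.4 CPM at P6 and 40.9, 36.3 and 40.5 CPM at P1 and rose by 0.74 ± 0.05 (adjusted p = 3.71e-05). Its partner E2f4 fell by 0.49 ± 0.08. The other genes that rose were Rb1 (0.68 ± 0.10), E2f1 (0.55 ± 0.07), E2f2 (1.26 ± 0.17), Tfdp2 (0.46 ± 0.06), the MuvB gene Lin37 (0.30 ± 0.10) and the NF-Y gene Nfya (0.16 ± 0.05). Among 8 CDK inhibitor genes 4 were called lower and 2 higher, against the same 29.1% and 30.0%, with a median of -0.14. Cdkn2a, the locus of the senescence proteins p16 and p19ARF, had 116, 115 and 115 CPM at P6 and 17.2, 17.4 and 19.4 CPM at P1 and rose by 2.68 ± 0.06, and Cdkn2b rose by 0.52. The 4 that fell were Cdkn1c, which encodes p57 (-2.30), Cdkn3 (-1.07), Cdkn1b (-0.35) and Cdkn2d (-0.29).

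**Figure D4:**
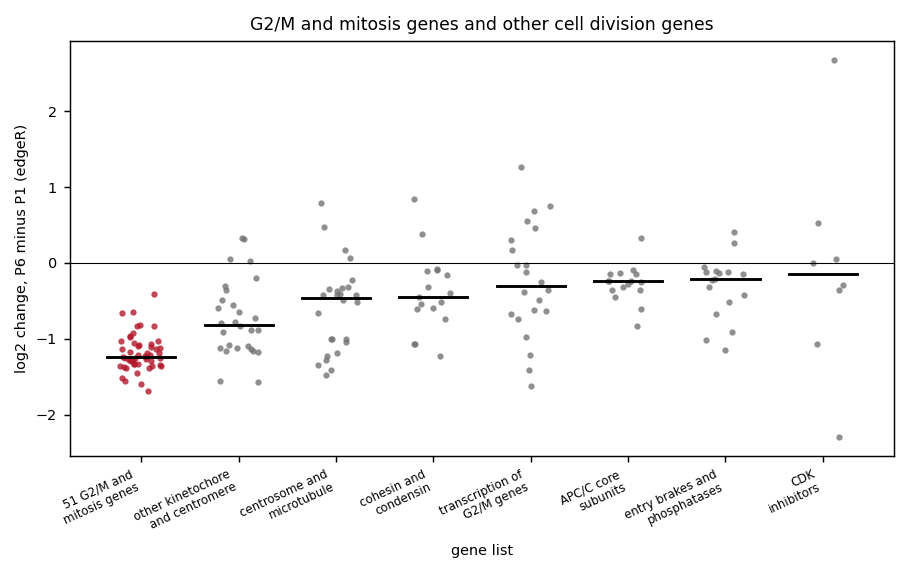
Fitted log2 change, P6 minus P1 (vertical axis, edgeR), of each gene in the set of 51 (red) and in 7 lists of other cell division genes (grey), with 1 list per position on the horizontal axis. Points are genes and black lines are medians: -1.24 for the 51, -0.81 for other kinetochore and centromere genes and between -0.46 and -0.14 for the remaining lists.

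With α-amyrin the 51 genes had a median slightly above vehicle at both passages, and no single gene passed the test. None of the 51 was called in the additive edgeR fit (background 0.0118% of tested genes higher and 0.0177% lower). An unadjusted edgeR p below 0.05 was found for 1995 of the 16962 tested genes and for 15 of the 51. That count was 22 with total counts only, 9 by DESeq2, and between 6 (without the P6 α-amyrin library) and 19 (without the P6 β-amyrin library) with 1 library left out; leaving out the P6 or the P1 vehicle library gave 7, and leaving out the P1 α-amyrin library gave 10. DESeq2 called none of the 51, against 1.14% of tested genes in either direction. The fitted α-amyrin minus vehicle log2 change was above 0 for 49 of 51 genes, against 8818 of the 16962 tested genes. The median of the 51 was 0.14, against 0.01 over all tested genes. In single pairs of libraries the median log2 ratio was 0.19 at P6 and 0.13 at P1. The ratio was above 0 for 46 genes at P6, against 53.4% of all tested genes, and for 46 at P1, against 49.3%. It was above 0 at both passages for 41 of 51, against 30.7%, and below 0 at both for none. The share of all tested genes below 0 at both is not given here. A counting interval wholly above 0 was found for 25 genes at P6, against 16.3% of tested genes, and for 32 at P1, against 16.4%. Such intervals cover counting error only. The genes of this set are switched on together, so counts of genes, here and in the comparisons below, are not independent replicates. Each pair sets 1 library against 1 other. The vehicle libraries had the lowest sums of the 51 genes at both passages (1314 CPM at P6 and 2922 CPM at P1). The same libraries are the denominators for β-amyrin over vehicle. The sizes per gene at P6 and at P1 showed little relation across the 51 (r = 0.11, rho = 0.12). The fibroblast markers had other levels too in this comparison, summing to 22054 CPM in P6 α-amyrin and 26644 CPM in P6 vehicle cells and to 25460 CPM in P1 α-amyrin and 30017 CPM in P1 vehicle cells. None of those 10 was called, 9 had an unadjusted p below 0.05, and their fitted changes ran between -0.39 and 0.74. Their part in the values of the 51 was not tested.

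The highest fitted values with α-amyrin were 0.37 ± 0.17 for Spc24, 0.34 ± 0.12 for Nuf2 and 0.31 ± 0.09 for Spc25 (edgeR adjusted p of 0.463, 0.347 and 0.289). All 3 encode subunits of the NDC80 complex. Nuf2 had 17.998 CPM in P6 α-amyrin and 12.7 CPM in P6 vehicle cells, and 36.8 CPM in P1 α-amyrin and 31.6 CPM in P1 vehicle cells. The lowest were Plk4 at -0.01 ± 0.10, Cdca2 at -0.00 ± 0.11 and Ndc80, the remaining subunit of that complex, at 0.01 ± 0.12. The sign of these 3 flipped under other scalings or with 1 library left out, so no direction is given for them. The 10 genes not above vehicle at both passages were Anln, Aurkb, Ccnb1, Cdca2, Cenpa, Cenpe, Mki67, Ndc80, Plk4 and Ube2c. For scale, Ccnb1 had 26.5 CPM in P6 α-amyrin and 27.0 CPM in P6 vehicle cells.

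With β-amyrin the values lay closer to vehicle. None of the 51 was called (background 0.0059% higher and 0.0% lower), and DESeq2 called none, against 0.672% of tested genes. Of the 51, 2 had an unadjusted edgeR p below 0.05, against 1739 of the 16962 tested genes. The fitted change was above 0 for 39 of the 51 genes and below for 12, against 8600 and 8362 of the 16962 tested genes. The fitted median of the 51 was 0.10, and leaving out the P1 β-amyrin library gave 0.04. A counting interval wholly above 0 was found for 11 genes at P6, against 16.1% of tested genes, and for 23 at P1, against 15.4%. In single pairs the median was 0.07 at P6, with 35 genes above 0 against 51.7% of all tested genes, and 0.08 at P1, with 38 above 0 against 50.2%. At both passages 30 of 51 were above 0, against 30.4%. The highest fitted values were Tpx2 at 0.26, Cdc20 at 0.23 and Nuf2 at 0.20, and the lowest were Mki67 at -0.15, Aurkb at -0.10 and Cdca2 at -0.10. Tpx2 had 54.3 CPM in P6 β-amyrin and 44.0 CPM in P6 vehicle cells, and 125 CPM in P1 β-amyrin and 107 CPM in P1 vehicle cells (edgeR adjusted p = 0.269). Mki67 had 77.7 CPM in P6 β-amyrin and 93.5 CPM in P6 vehicle cells, and 165 CPM in P1 β-amyrin and 169.8 CPM in P1 vehicle cells (adjusted p = 0.552). The macrophage markers also differed in this comparison, at 3804 CPM in P6 β-amyrin against 5253 CPM in P6 vehicle cells and 44.1 CPM in P1 β-amyrin against 350.2 CPM in P1 vehicle cells, and their part in these values was not tested.

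The amyrins could be compared directly, since both were given at 20 µM for 3 days. This is 1 pair of compounds, with p-values adjusted over all 16962 genes. None of the 51 differed between α-amyrin and β-amyrin by the edgeR test (background 0.0472% higher and 0.0118% lower). DESeq2 called none, against 0.702% of tested genes. Of the 51, 4 had an unadjusted edgeR p below 0.05, against 1563 of the 16962 tested genes. The fitted change was above 0 for 40 of the 51 genes and below for 11, against 8630 and 8332 of the 16962 tested genes. The fitted median of the 51 was 0.07, with 0.11 without the P1 α-amyrin library and 0.05 without the P6 α-amyrin library. In single pairs the median was 0.12 at P6, with 40 genes above 0 against 50.8% of all tested genes, and 0.04 at P1, with 33 above 0 against 50.7%. The P1 median was 0.09 with total counts only and 0.08 on log2(FPKM + 1). At both passages 28 of 51 were above 0, against 29.2%. A counting interval wholly above 0 was found for 14 genes at P6, against 12.5%, and for 12 at P1, against 16.1%. In the additive fit, the 95% intervals of 49 of the 51 genes lay within 0.5 of 0 on the log2 scale, that is within 1.41-fold. The same held for 44 genes with α-amyrin against vehicle and for 50 with β-amyrin against vehicle. The share of all tested genes within that range is not given here. No condition was replicated, so these intervals do not limit a difference between cultures. The widest reach was to 0.63 for Spc24 on the upper side and to -0.28 for Tpx2 on the lower side. The intervals do not show that the amyrins act alike. All 15 macrophage markers were above 0 in this comparison, with a median fitted change of 1.21 and 9 at an unadjusted p below 0.05, none of them called. They summed to 5323 CPM in P6 α-amyrin and 3804 CPM in P6 β-amyrin cells and to 300.1 CPM in P1 α-amyrin and 44.1 CPM in P1 β-amyrin cells, and their part in the values of the 51 was not tested.

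The highest α-amyrin minus β-amyrin values were 0.25 for Cdc25c (interval -0.10 to 0.60), 0.25 for Nusap1 (0.05 to 0.45, edgeR adjusted p = 0.473) and 0.24 for Spc24. Nusap1 had 16.4 CPM in P6 α-amyrin and 13.4 CPM in P6 β-amyrin cells, and 28.7 CPM in P1 α-amyrin and 24.6 CPM in P1 β-amyrin cells. The lowest were Tpx2 at -0.15 (-0.28 to -0.01, adjusted p = 0.507), Ube2c at -0.08 and Ccnf at -0.04. Tpx2 had 48.2 CPM in P6 α-amyrin and 54.3 CPM in P6 β-amyrin cells, and 115 CPM in P1 α-amyrin and 125 CPM in P1 β-amyrin cells. Each of these differences is small beside the passage change of the same gene, which was -0.83 for Nusap1 and -1.25 for Tpx2.

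**Figure D5:**
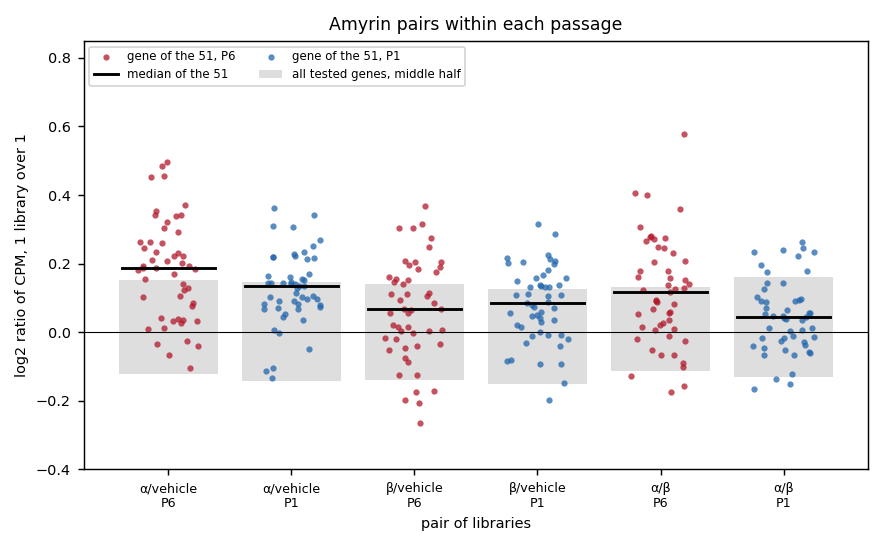
Log2 ratio of CPM of 1 library over another (vertical axis) for the 51 genes in 6 pairs within a passage (horizontal axis): α-amyrin over vehicle, β-amyrin over vehicle and α-amyrin over β-amyrin, each at P6 and P1. Points are genes (red at P6, blue at P1), black lines their medians, and grey bars the interquartile range of all tested genes; the medians are 0.19 and 0.13 for α-amyrin over vehicle, 0.07 and 0.08 for β-amyrin over vehicle, and 0.12 and 0.04 for α-amyrin over β-amyrin, P6 before P1.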

How the data were processed

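The 51 genes and all gene lists were chosen with earlier results of these data known. Poly(A) RNA of 6 libraries was made into libraries with a strand-keeping kit, per the labels' protocols. Per the submitters' processing notes, reads were handled with featureCounts 1.6.3, HISAT2 2.1.0, Trimmomatic 0.38 and SAMtools 1.9 on build mm10; the sources used here do not give their settings. Every main test used the raw whole-number counts per gene that the authors deposited. FPKM values, which the authors deposited beside them and whose computation the sources used here do not describe, served for levels and 1 alternative.

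Genes passing filterByExpr by passage (16962) were fitted with edgeR 4.0.16 in R 4.3.3 (TMM scaling, estimateDisp, glmQLFit, glmQLFTest) with treatment and passage as additive terms over all 6 libraries. This leaves 2 residual degrees of freedom beside 4.83 prior ones, and a response that differs between passages counts as error. The biological coefficient of variation was 7.72%. Calls used Benjamini-Hochberg adjusted p below 0.05 over all tested genes. The code was tested on simulated data. Errors are standard errors. Pairs of single libraries were given as log2 ratios of CPM with a prior count of 2 and no p, with 95% intervals for counting error only. DESeq2 1.42.0, limma 3.58.1 on log2(FPKM + 1), other scalings and filters, and leaving out each library were alternatives. Named genes were, per role, the largest and smallest passage change, 13 textbook genes, and for the compounds the 3 highest and 3 lowest fitted values; in the other lists, genes called against the majority, with Foxm1, Mybl2, E2f4 and Rbl2. Further genes were named after their values were seen. Promoters were searched in the RefSeq table of GRCm38.p6.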

Additional observations from a re-analysis of the deposited data

Results flagged for a closer look

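Smc4, a condensin ATPase gene, moved in opposite directions between the amyrins at the 2 passages. Its α-amyrin over β-amyrin log2 ratio was 0.13 at P6 (66.6 CPM in α-amyrin and 61.0 CPM in β-amyrin cells) and -0.14 at P1 (143 CPM in α-amyrin and 157 CPM in β-amyrin cells). Both counting intervals leave out 0, at 0.02 to 0.24 for P6 and -0.20 to -0.07 for P1. With 1 library per condition the difference between the passages was not tested. Smc4 was the only gene of the 51 that met this description in any of the 3 compound comparisons. The share of all tested genes that met it is not given here, so 1 such gene may be no more than background. For α-amyrin over β-amyrin, the counting interval was wholly above 0 at P6 for 12.5% of all tested genes. It was wholly below 0 at P1 for 17.2%.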

How the results depend on the processing

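The count of 51 genes called lower at P6 held under each scaling, filter and tool tried and with each of the 6 libraries left out. The count of 0 called for each compound comparison held under each scaling, filter and tool tried. That count of 0 says little about the 51, since few genes of any kind were called. Of 16962 tested genes, the main fit called 5 for α-amyrin against vehicle and 1 for β-amyrin against vehicle. It called 10 for α-amyrin against β-amyrin. Limma on log2(FPKM + 1) called 0 genes in each comparison, while the fit with no low-count filter called 464, 404 and 484 of 29952. All 714 other values for the passage change of single genes kept direction and call. On log2(FPKM + 1) the median P6 over P1 ratio was -1.02 in α-amyrin, -1.05 in β-amyrin and -1.04 in vehicle cells, and the median β-amyrin over vehicle ratio was 0.0521 at P6 and 0.0631 at P1; the added 1 shrinks ratios of low values. With total counts only, the α-amyrin over vehicle median at P1 was 0.17. For the compounds the sign was followed only for the 3 highest and 3 lowest fitted values of each comparison, and not for the rest of the 51. Of these, 3 values near 0 for α-amyrin against vehicle changed sign, and the cause was not tested. Plk4 became 0.0202 with total counts only, 0.00544 with DESeq2 and 0.0320 with limma on FPKM, and ran between -0.123 and 0.148 with 1 library left out. Cdca2 became 0.00541 with RLE factors, 0.0265 with total counts only, 0.00086 with no filter, 0.00024 with the CPM filter, 0.0123 with DESeq2 and 0.0204 with limma on FPKM, and ran between -0.104 and 0.146 with 1 library left out. Ndc80 ran between -0.131 and 0.198 with 1 library left out, below 0 without the P6 vehicle or the P6 α-amyrin library. No paired analysis was possible because the replicate numbers, all 1, pair no samples across groups; treatment, a term of the fit, already sets each P6 library beside its P1 library, and without that term 51 genes were called lower too. Without single libraries the median of the 51 moved by over 1.5 times for β-amyrin against vehicle and for α-amyrin against β-amyrin, as given above. For α-amyrin against vehicle that median stayed between 0.13 and 0.17. The lowest count of any of the 51 genes was 77, for Cdc25c.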
